A study of Mus musculus with 2 samples.

Results

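Matrix metalloproteinases (Mmp), the ADAMTS proteases (Adamts), the ADAMTS-like proteins (Adamtsl) and the tissue inhibitors of metalloproteinases (Timp) were examined in the embryonic mouse kidney. The members were every protein-coding gene whose GENCODE symbol is one of these stems followed by a number and at most 1 letter. The rule gave 50 genes of 21474 protein-coding genes in the tables, made up of 22 Mmp, 19 Adamts, 5 Adamtsl and 4 Timp genes. Mmp1a fits the symbol but is annotated as a polymorphic pseudogene, and was left out. The rule itself uses names and gene classes alone.

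Total RNA came from healthy kidneys of B6NCrl mouse embryos at embryonic day 15.5, pooled over males and females. There was 1 group, embryonic kidney, with 2 biological replicate libraries. Replicate 1 was a pool of 78 embryos with 36244861 expected counts (estimated reads), and replicate 2 was a pool of 62 embryos with 39415002. No treatment, genotype, age or other organ was contrasted, so the values below are levels, differences between genes within a library, and differences between the pools, with no p (a pair of libraries leaves 1 degree of freedom, and an exact 2-sided test could not go below 0.5).

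MMPs are zinc proteases made as inactive precursors, most of which are secreted while a few are anchored in the cell membrane. Together they cut collagens, basement membrane proteins and many cell surface molecules. ADAMTS enzymes are secreted relatives that cut proteoglycans, trim procollagens or act on microfibrils, and ADAMTS-like proteins carry similar binding domains but no protease. TIMPs bind the active site of these enzymes and block it. In the kidney rudiment this system acts where the ureteric bud branches into mesenchyme and where new basement membrane is laid down.

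The labelled organ was checked first. All 8 kidney markers, nephron progenitor, ureteric bud and podocyte genes among them, were detected, with summed levels of 322 TPM in replicate 1 and 325 TPM in replicate 2. TPM is an abundance per transcript length, scaled to a fixed sum in each library, and a gene is called detected here at 1 TPM or more in both libraries. Other cell types were also present, and their summed marker levels differed between the pools. The 6 renal stroma markers summed to 1930 and 2321 TPM in replicates 1 and 2, smooth muscle to 307 and 675 TPM, skeletal muscle to 363 and 201 TPM, adrenal cortex to 44.9 and 149 TPM, adrenal medulla to 19.1 and 99.2 TPM, liver to 214 and 421 TPM, and endothelium to 328 and 347 TPM. No gene of these lists was at 0 counts in a library. In bulk tissue, fewer cells of a type and less RNA per cell cannot be told apart, which holds for every level below.

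Of the 50 members, 35 had an entry in the RefSeq promoter table (build GRCm38.p6), which covers 250 bases before to 50 bases after each start. Mmp2 and Mmp9 had no entry. The starts used for Adamts20 and Mmp11 lay 61068 and 3994 bases from their annotated gene starts, in that order. A pair of highly expressed members and a pair from the Mmp cluster of chromosome 9 are shown, because the cluster differed in sequence as well as in level. Capitals mark matches to TGAGTCA (the AP-1 motif), TGTGGT (a RUNX motif) or TATAAA (the TATA box), searched on both strands, and none of the matches shown overlap. All run 5′ to 3′ on the strand of the gene.
Mmp14, chr14:54431348-54431647, plus strand: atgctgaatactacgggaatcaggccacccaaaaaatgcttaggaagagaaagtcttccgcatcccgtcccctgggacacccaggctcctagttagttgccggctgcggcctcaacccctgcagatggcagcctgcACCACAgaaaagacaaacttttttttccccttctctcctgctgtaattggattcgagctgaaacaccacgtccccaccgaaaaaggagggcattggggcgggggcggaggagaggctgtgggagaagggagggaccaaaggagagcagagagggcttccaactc
Adamts1, chr16:85803064-85803363, minus strand: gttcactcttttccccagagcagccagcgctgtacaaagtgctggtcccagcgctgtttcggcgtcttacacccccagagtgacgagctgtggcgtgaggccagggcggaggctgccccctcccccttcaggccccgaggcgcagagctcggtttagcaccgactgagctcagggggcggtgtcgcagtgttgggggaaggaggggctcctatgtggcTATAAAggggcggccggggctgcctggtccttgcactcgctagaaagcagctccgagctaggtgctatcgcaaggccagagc
Mmp13, chr9:7272264-7272563, plus strand: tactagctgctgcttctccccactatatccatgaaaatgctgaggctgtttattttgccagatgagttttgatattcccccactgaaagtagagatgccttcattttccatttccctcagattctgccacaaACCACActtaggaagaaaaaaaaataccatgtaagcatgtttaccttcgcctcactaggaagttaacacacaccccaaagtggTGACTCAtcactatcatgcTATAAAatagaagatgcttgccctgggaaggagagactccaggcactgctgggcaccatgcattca
Mmp3, chr9:7445572-7445871, plus strand: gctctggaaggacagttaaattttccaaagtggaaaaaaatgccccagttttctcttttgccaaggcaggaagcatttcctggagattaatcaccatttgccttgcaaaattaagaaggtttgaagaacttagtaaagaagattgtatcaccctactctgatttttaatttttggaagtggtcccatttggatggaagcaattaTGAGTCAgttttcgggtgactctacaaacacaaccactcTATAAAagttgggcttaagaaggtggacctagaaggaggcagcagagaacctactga

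The Mmp14 window held a RUNX match on the minus strand at -114, counted from the start base to the first base of the match. The Adamts1 window held a TATA match at -32. In the Mmp13 window a RUNX match at -118 and an AP-1 match at -35, both on the minus strand, preceded a TATA match at -16. Mmp3 had an AP-1 match at -46 and a TATA match at -7. A match is a description of letters and not a shown binding site.

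The composition of the windows differed most for the chromosome 9 cluster. Among 20 detected members with an entry, the median GC content was 66.5% and the median number of CpG dinucleotides was 22. Among the 15 members not detected, of which 9 form the cluster and 1 of those is Mmp13, these medians were 46% and 2. Outside the cluster the 6 members not detected had medians of 59% and 10, and over all 32851 promoters of the table they were 52.7% and 7. AP-1 matches occurred in 0 of the 20 detected members and in 5 of the 15 not detected, against 5.20% of all promoters. All 5 lay in the chromosome 9 cluster, where 7 of 9 windows also had a TATA match, against 13.6% of all promoters. RUNX matches occurred in 2 of the 20 detected and 3 of the 15 not detected, against 16.8% of all promoters. The 9 clustered windows had a median GC content of 40%, so they differ from the rest in base composition as well as in motifs. Values over the promoters of detected genes in general were not computed, so the differences by detection have no like background.

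Detection split the families. A total of 33 of the 50 members (66%) were detected, beside 62.3% of all protein-coding genes. By family this was 17 of 19 Adamts genes, 4 of 5 Adamtsl genes, 3 of 4 Timp genes and 9 of 22 Mmp genes. The Mmp genes not detected include all 9 of the chromosome 9 cluster. Of the detected Adamts genes, Adamts3, Adamts6, Adamts14, Adamts18 and Adamts19 lay near the threshold, with means between 1.18 and 1.46 TPM. At 10 TPM or more in both libraries there were 14 members (28%), beside 41.1% of all protein-coding genes. The detected members had a median level of 9.10 TPM, against 19.5 TPM for all detected protein-coding genes. Most of the family was therefore expressed at low levels, and the 5 highest members held 54.8% of the members' summed TPM in replicate 1 and 58.5% in replicate 2. The share held by a like fraction of all protein-coding genes was not computed.

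**Figure D1:**
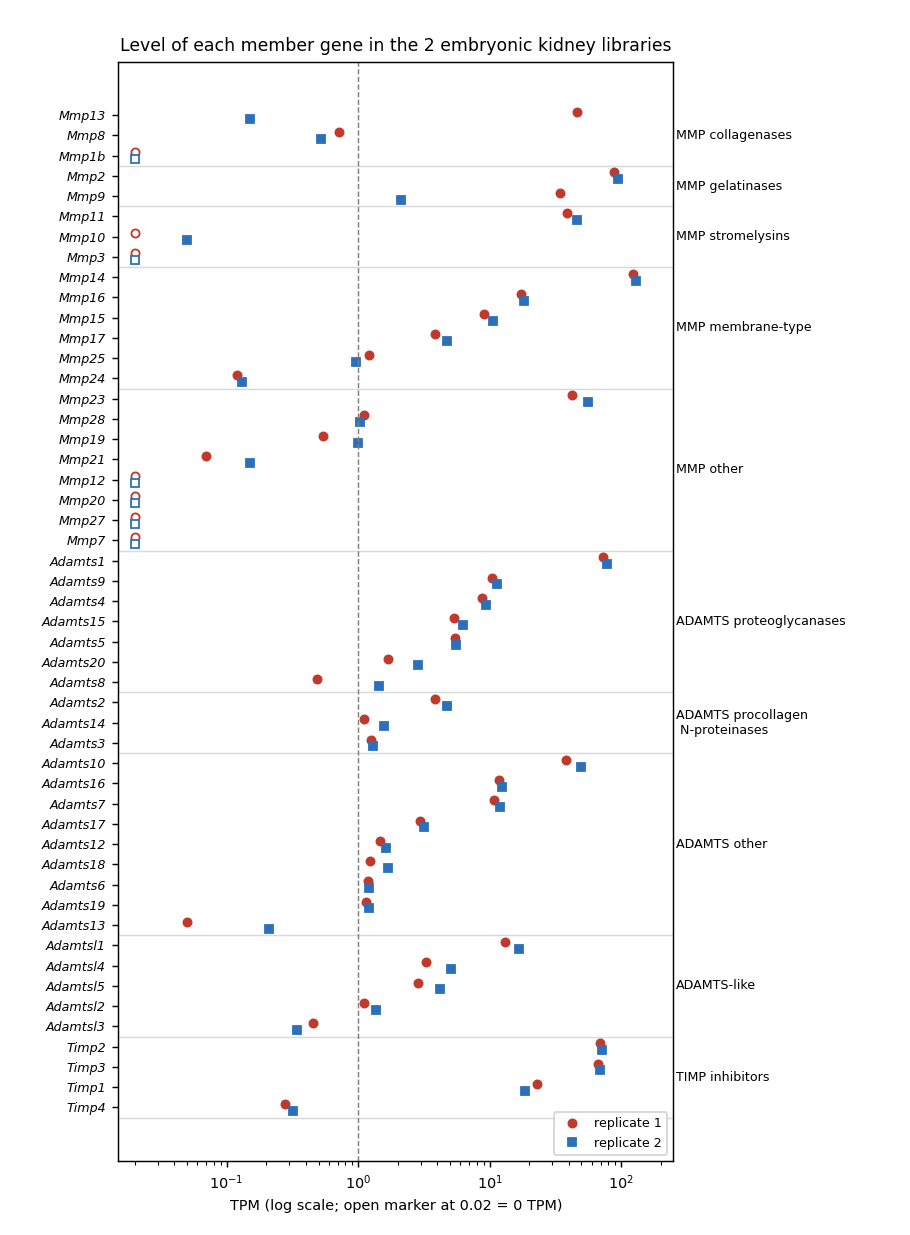
Level of all 50 genes in both libraries, in TPM on a log axis, grouped by role; circles are replicate 1, squares are replicate 2, open markers are libraries at 0 TPM, and the dashed line is 1 TPM. Most genes show nearly equal levels in the pools, while Mmp13 (45.9 and 0.15 TPM) and Mmp9 (34.2 and 2.12 TPM) lie far apart, and 6 Mmp genes are at 0 in both.

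The membrane-type enzymes were led by Mmp14, a collagenase of the cell surface that also activates the Mmp2 precursor. Mmp14 (ENSMUSG00000000957, chromosome 14, mm10 54431612 to 54445364, plus strand) had 124 TPM in replicate 1 and 130 TPM in replicate 2, from 7576 and 8587 counts. It was the highest of all 50 members, at percentile 94.5 of protein-coding genes, and the pools were 1.05-fold apart. Mmp16, another membrane-type enzyme, had 17.3 and 18.4 TPM in the same order. Mmp15 had 9.00 and 10.6 TPM. Mmp17, held by a lipid anchor rather than a transmembrane segment, had 3.87 and 4.77 TPM. Thus 4 of 6 membrane-type genes were detected and Mmp14 stood well above its relatives. Of the others, Mmp25 had 1.22 TPM in replicate 1 and 0.96 TPM in replicate 2, and Mmp24 had 0.12 and 0.13 TPM.

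Of the gelatinases, which cut denatured collagen and basement membrane collagen, Mmp2 was high and even in both pools. Mmp2 (ENSMUSG00000031740, chromosome 8, 92827291 to 92853420, plus strand) had 87.7 TPM in replicate 1 and 95.5 TPM in replicate 2, from 6310 and 7400 counts, the second highest member. Mmp9, on chromosome 2, had 34.2 and 2.12 TPM and is taken up below with the differences between the pools. Among the stromelysins only Mmp11 was detected, an enzyme that is switched on inside the cell by furin. It had 38.5 TPM in replicate 1 and 45.9 TPM in replicate 2. Mmp10 had 0 and 2 counts, and Mmp3 had none. In the collagenase group, which leaves out the membrane-type Mmp14, none of the 3 genes passed in both pools. Mmp8, the collagenase of neutrophils, had 0.71 and 0.52 TPM. Mmp1b, a rodent counterpart of interstitial collagenase, had no counts, and Mmp13 passed in replicate 1 alone.

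Of the 8 remaining Mmp genes, Mmp23 was the highest. Mmp23, an enzyme first anchored by its amino end and then released by cleavage, had 42.3 TPM in replicate 1 and 55.6 TPM in replicate 2. Mmp28, or epilysin, was near the threshold at 1.11 and 1.04 TPM. Mmp19 had 0.54 and 0.99 TPM, and Mmp21, known for its part in left-right asymmetry, had 0.07 and 0.15 TPM. Mmp7 (matrilysin), Mmp12 (the macrophage elastase), Mmp20 (the enzyme of tooth enamel) and Mmp27 had no counts in either library.

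With Mmp1b and Mmp3, these made 6 members (12%) at 0 counts in both libraries, beside 17.3% of all protein-coding genes. A count of 0 allows up to 3 counts, which corresponds to between 0.0358 and 0.126 TPM for these genes, so lower levels were not detectable at this depth. All 6 lie in a cluster of 9 members (Mmp13, Mmp12, Mmp1b, Mmp3, Mmp10, Mmp8, Mmp27, Mmp20 and Mmp7) within 427 kb of chromosome 9, from 7272514 to 7699585. The whole cluster summed to 46.6 TPM in replicate 1, nearly all of it Mmp13, and to 0.72 TPM in replicate 2.

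The proteoglycanases of the ADAMTS family were led by Adamts1, which cuts versican and aggrecan. Adamts1 (ENSMUSG00000022893, chromosome 16, 85793827 to 85803113, minus strand) had 72.9 TPM in replicate 1 and 77.7 TPM in replicate 2, from 8272 and 9390 counts, at percentile 90.04. Adamts9, a versican-cutting enzyme, had 10.5 and 11.3 TPM, and its close relative Adamts20 had 1.70 and 2.87 TPM. The aggrecanases Adamts4 and Adamts5, known best from cartilage, were lower than Adamts1: Adamts4 had 8.80 and 9.40 TPM, and Adamts5 had 5.49 and 5.54 TPM. Adamts15 had 5.34 TPM in replicate 1 and 6.29 TPM in replicate 2. In this group 6 of 7 genes were detected, and Adamts8 passed in replicate 2 alone, with 0.49 and 1.44 TPM. Of their substrates, Vcan (versican) had 60.2 and 59.1 TPM, while Acan (aggrecan) was not detected, with 0.37 and 0.25 TPM.

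The 3 procollagen N-proteinases, which remove the amino-terminal propeptide of fibrillar collagens, were all detected at low levels. Adamts2 had 3.86 TPM in replicate 1 and 4.74 TPM in replicate 2, Adamts14 had 1.10 and 1.56 TPM, and Adamts3, which also processes the lymphatic growth factor Vegfc, had 1.26 and 1.29 TPM. Their summed level, 6.22 and 7.59 TPM, was the lowest of the 10 role groups in replicate 1, and only the collagenases were lower in replicate 2.

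Among the other ADAMTS genes Adamts10, which acts on fibrillin microfibrils, was the highest at 38.2 TPM in replicate 1 and 49.4 TPM in replicate 2. Its close relative Adamts6 had 1.19 and 1.21 TPM. Adamts16 had 11.9 and 12.3 TPM, and its relative Adamts18 had 1.24 and 1.68 TPM. Adamts7 and Adamts12 are a pair known to cut the cartilage protein Comp. Adamts7 had 10.9 and 12.1 TPM, and Adamts12 had 1.48 and 1.63 TPM. In each of these related pairs 1 gene carried most of the RNA. Adamts17 had 2.95 TPM in replicate 1 and 3.19 TPM in replicate 2, and Adamts19 had 1.14 and 1.22 TPM. Adamts13, the plasma enzyme that trims von Willebrand factor, was the member of this group not detected, with 5 and 13 counts (0.05 and 0.21 TPM).

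The ADAMTS-like proteins, which have no protease domain, summed to 20.9 TPM in replicate 1 and 27.6 TPM in replicate 2. Adamtsl1 held most of this, with 13.2 and 16.6 TPM. Adamtsl4, a fibrillin-binding protein, had 3.27 and 5.12 TPM, and Adamtsl5 had 2.87 and 4.17 TPM. Adamtsl2, also a microfibril protein, had 1.10 and 1.36 TPM from 36 and 72 counts, and Adamtsl3 was under the threshold at 0.45 and 0.34 TPM.

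A pair of inhibitor genes was high. Timp2 (ENSMUSG00000017466, chromosome 11, 118301069 to 118355740, minus strand), which also takes part in the activation of Mmp2 on the cell surface, had 69.1 TPM in replicate 1 and 71.0 TPM in replicate 2. Timp3 (ENSMUSG00000020044, chromosome 10, 86300372 to 86349506, plus strand), the matrix-bound inhibitor that also blocks some ADAMTS enzymes, had 67.2 and 69.6 TPM. Timp1 had 23.0 and 18.7 TPM. Timp4 had 0.28 and 0.32 TPM from 9 and 11 counts. Timp1 was 1 of 3 detected members with a higher level in replicate 1 (the others were Mmp9 and Mmp28), and its count ratio of 1.24, replicate 1 over replicate 2, had an exact 95% interval of 1.07 to 1.43 while its TPM ratio stayed within the replicate limit.

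Ordered by mean level, the detected members form 32 neighbouring pairs, and the ranges of the pools overlapped in 20 of them. Among the first 5 members, only Timp2 and Timp3 overlapped, so that Mmp14, Mmp2 and Adamts1 followed each other without overlap.

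Summed by role, the membrane-type enzymes had 155 TPM in replicate 1 and 165 TPM in replicate 2, the gelatinases 122 and 97.6 TPM, and the proteoglycanases 105 and 114 TPM. The inhibitors summed to 159.5 and 159.7 TPM. All Mmp genes together had 406 and 367 TPM, 2.55 and 2.30 times the Timp sum. All Adamts genes had 180 and 205 TPM, 1.13 and 1.28 times the Timp sum. Enzymes of both families thus had 3.68 times the inhibitor RNA in replicate 1 and 3.58 times in replicate 2. The higher Mmp sum of replicate 1 rested on Mmp9 and Mmp13: without them, a choice made after their values were seen, the Mmp sum was 326 TPM in replicate 1 and 365 TPM in replicate 2. These are ratios of RNA and say nothing of active enzyme. They also count transcripts not annotated as protein-coding, which held more of the enzyme sum. Such forms had 30.2 and 41.4 TPM in Adamts10 and 20.1 and 26.4 TPM in Mmp23, in replicates 1 and 2. Among the Timp genes only Timp3 held any, with 1.88 and 1.93 TPM.

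Differences within 30 chosen pairs of genes were taken as log2(TPM + 1) of the first gene minus the second in each library. A call needed the same sign in each library and, in each, a size beyond the replicate limit of the lower gene. This limit is the size of log2 TPM ratio between the pools that 95% of detected protein-coding genes of similar level stayed within. It was 0.87 at a mean of 1 to 3 TPM, 0.64 up to 10 TPM, 0.34 up to 30 TPM, 0.26 up to 100 TPM and 0.24 above that. Where the lower gene was not detected, 0.87 was used. Of the 30 pairs, 27 were called, 22 with the first gene higher and 5 with it lower. The limit reflects the spread of single genes between the pools. The share of other gene pairs that would pass it was not computed, so the count is not a trait of these pairs. In 6 of the 27 the lower gene was not detected (Mmp24, Mmp25, Mmp3, Timp4, Adamts8 and Adamtsl3).

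Within the activation complex of Mmp2, Mmp2 lay 0.47 ± 0.034 below Mmp14 on this scale, a mean of -0.47 (SD, n = 2). It lay 0.38 ± 0.059 above Timp2, and Mmp14 lay 0.85 ± 0.024 above Timp2. The differences from Mmp2 are small, and both calls were lost when 1 limit was used for all levels. Mmp2 exceeded Mmp9 by 1.33 in replicate 1 and by 4.95 in replicate 2, so the direction held in each pool while the size did not. Mmp14 exceeded Mmp16 by 2.76 and Mmp15 by 3.57. Timp3 exceeded Timp1 by 1.68, and Timp2 exceeded Reck, a membrane-anchored inhibitor of MMPs, by 1.76.

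Several related ADAMTS genes differed in level by more than the replicate limit. Adamts1 exceeded Adamts4 by 2.92, Adamts5 by 3.55 and Adamts9 by 2.68. Adamts10 exceeded Adamts6 by 4.34, and Adamts9 exceeded Adamts20 by 1.88. Adamts18 lay below Adamts16 with a difference of -2.42, and Adamts12 below Adamts7 with -2.29. These pairs kept their direction and their call under every alternative setting tried, all of which used whole-gene levels. By coding transcripts alone, Adamts10 had 8.06 TPM in replicate 1 and 8.01 TPM in replicate 2, and Adamts9 had 3.20 and 2.96 TPM. Pair differences were not computed on coding transcripts. The 3 pairs not called were Timp2 and Timp3 (0.03), Adamtsl4 and Adamtsl5 (0.19), and Adamts5 and Adamts4 (-0.63), and the last of these passed under 4 of the 6 alternative settings.

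**Figure D2:**
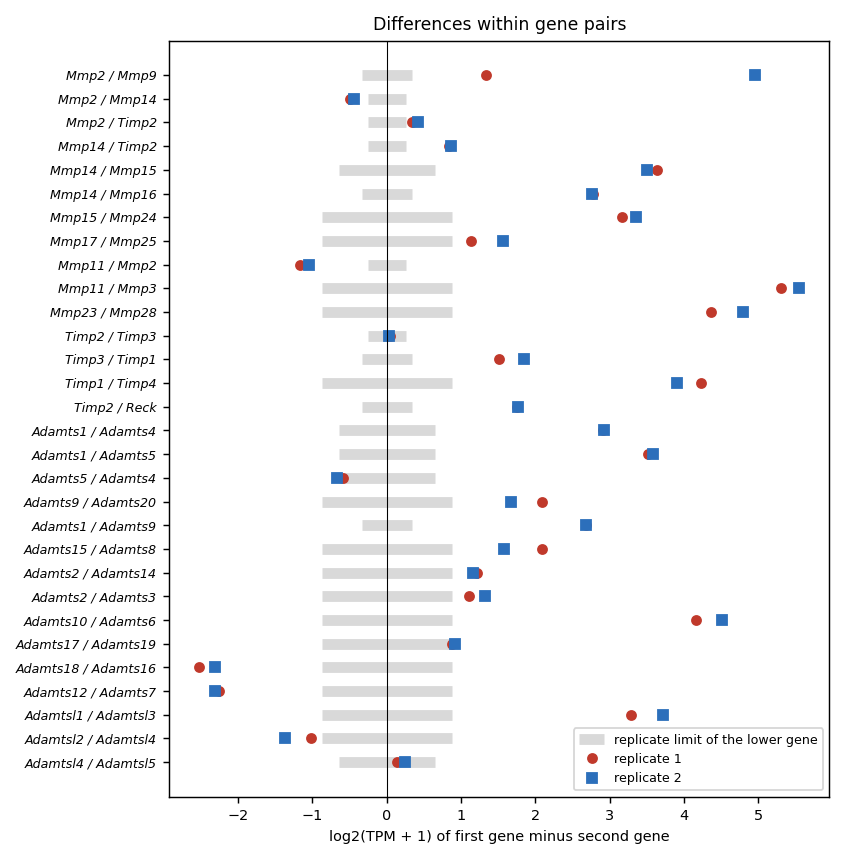
Difference between the genes of each of the 30 pairs, as log2(TPM + 1) of the first minus the second, with replicate 1 as circles and replicate 2 as squares; grey bars span the replicate limit of the lower gene. In 27 pairs both points lie outside the bar on the same side, and Mmp2 / Mmp9 shows the widest gap between the pools (1.33 and 4.95).

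Between the pools, 4 of the 33 detected members (12.1%) passed the replicate limit, beside 5.02% of all detected protein-coding genes. Mmp9 passed with a higher level in replicate 1, as did 1.90% of all detected genes, and Mmp23, Adamts10 and Adamtsl4 passed with a higher level in replicate 2, as did 3.11%. Smaller differences ran mostly one way as well: 30 of 33 detected members had the higher level in replicate 2, against 55.0% of all detected protein-coding genes. Their median log2 ratio, replicate 1 over replicate 2, was -0.12, against -0.02 over all detected protein-coding genes. Most marker lists ran the same way: all 6 genes were higher in replicate 2 on each of the renal stroma, endothelium, macrophage, neutrophil, adrenal cortex, adrenal medulla and liver lists, as were 5 of 6 smooth muscle genes and 6 of 8 kidney genes, while all 6 skeletal muscle genes were higher in replicate 1. The ratio of sums, replicate 2 over replicate 1, ran from 1.06 for endothelium and 1.20 for renal stroma to 5.19 for adrenal medulla among the lists higher throughout. The part of these cell types in the members' shift was not tested.

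**Figure D3:**
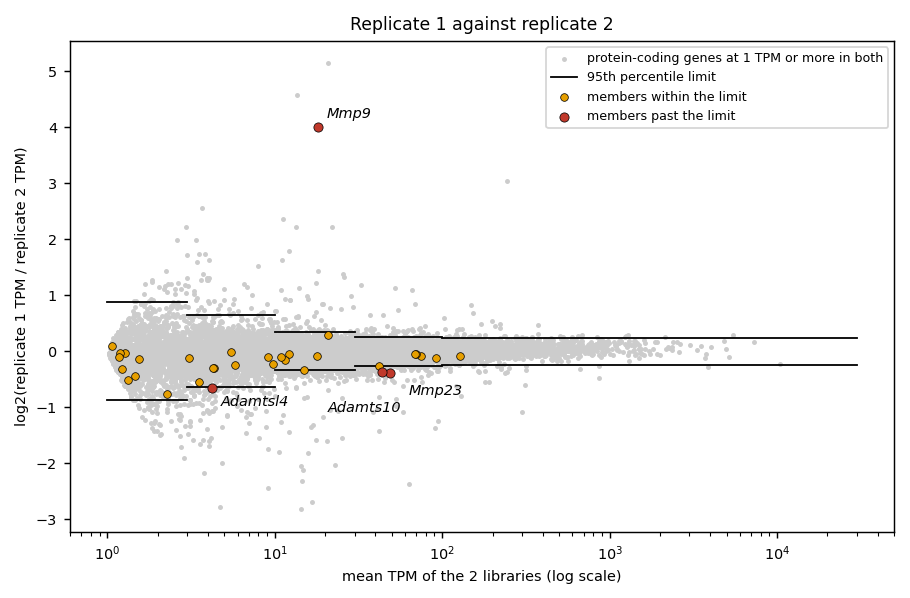
Log2 ratio of replicate 1 to replicate 2 against mean TPM (log axis) for all detected protein-coding genes (grey), with the 33 detected members in colour and the 95th percentile limit of each level as black lines. Mmp9 lies at 4.01, while Mmp23 (-0.39), Adamts10 (-0.37) and Adamtsl4 (-0.65) lie just below the lower line.

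Mmp9, the gelatinase of osteoclasts and neutrophils, had 2334 counts in replicate 1 and 161 in replicate 2. The count ratio was 15.8, with an exact 95% interval of 13.4 to 18.6, which like all such intervals here covers counting error only. Mmp9 was past the limit under every setting tried. Mmp13, known from growing cartilage and bone-forming cells, had 2895 counts in replicate 1 and 10 in replicate 2 (45.9 and 0.15 TPM), a count ratio of 315 (171 to 657). Mmp13 was under 1 TPM in replicate 2, so the limit for detected genes did not apply to it, and it passed once low values were kept with a pseudocount of 1. In replicate 1 Mmp13 was the third highest of the Mmp genes, and without that library it was barely seen.

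Genes of bone were also higher in replicate 1, while those of cartilage differed to unlike degrees. On the cartilage and bone list 5 of 6 genes were higher in replicate 1, with a sum of 166 TPM in replicate 1 and 26.5 TPM in replicate 2. Ibsp, a matrix protein of mineralising bone, made up most of the replicate 1 sum, with 131 TPM in replicate 1 and 0.12 TPM in replicate 2. Of the cartilage collagen genes, Col2a1 had 22.5 and 15.2 TPM, whereas Col9a1 ran the other way with 6.62 and 10.3 TPM. Further lists, written after these values were seen, gave 9 of 9 osteoblast genes higher in replicate 1 (sums of 612 and 65.9 TPM), 8 of 8 osteoclast genes (70.7 and 22.9 TPM) and 6 of 6 growth plate genes (50.02 and 41.5 TPM). Ibsp and Bglap stand on both the first of these lists and the osteoblast list. None of these genes was at 0 counts in a library. Only 4 of the 9 osteoblast, 4 of the 8 osteoclast and 4 of the 6 growth plate genes were detected, however. Over all detected protein-coding genes, 55.0% were higher in replicate 2. On the osteoblast list Spp1 (osteopontin, also made by kidney epithelium) had 432 and 52.6 TPM, most of the sum in each library. The osteocyte gene Dmp1 had 12.8 and 0.06 TPM. On the growth plate list Sox9 (31.1 and 29.3 TPM) and Hapln1 (8.43 and 8.16 TPM) were nearly level, while Col11a2 had 5.91 and 1.78 TPM. The osteoclast protease Ctsk had 36.1 and 7.79 TPM, while Nfatc1 of the same list had 6.11 and 5.59 TPM. The neutrophil list summed to 65.9 TPM in replicate 1 and 97.0 TPM in replicate 2, and the macrophage list to 131 and 146 TPM. Mmp2 (87.7 and 95.5 TPM) and Mmp14 (124 and 130 TPM) were high in both pools and stayed within the replicate limit. The part of bone cells, neutrophils or macrophages in the Mmp9 and Mmp13 difference was not tested.

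**Figure D4:**
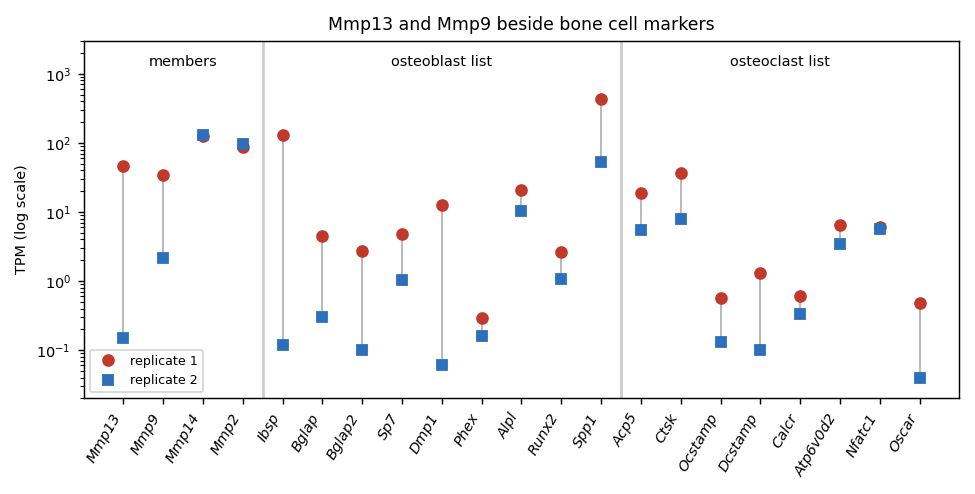
TPM (log axis) of Mmp13, Mmp9, Mmp14 and Mmp2 beside the genes of the osteoblast and osteoclast lists, with replicate 1 as circles, replicate 2 as squares and a line joining the pools. All 9 osteoblast and 8 osteoclast genes are higher in replicate 1, as are Mmp13 and Mmp9, while Mmp14 and Mmp2 are nearly equal. On each of the lists 4 genes reach 1 TPM in both libraries.

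The members higher in replicate 2 differed by less. Mmp23 had 1061 counts in replicate 1 and 1500 in replicate 2, and its count ratio, replicate 2 over replicate 1, was 1.30 (1.20 to 1.41). Adamts10 had 2857 and 3788 counts and a ratio of 1.22 (1.16 to 1.28). Both passed under each alternative but the one with 1 limit for all levels. Adamtsl4, with 258 and 385 counts and a ratio of 1.37 (1.17 to 1.61), was barely past its limit (0.65 against 0.64). It passed otherwise only with 1 limit for all levels. Its coding transcripts had 2.76 TPM in replicate 1 and 3.74 TPM in replicate 2, and its other forms 0.51 and 1.38 TPM. Just inside its limit was Mmp11, at a log2 ratio of -0.25 against 0.26. Adamts8, not detected in both pools, had 42 and 134 counts and a ratio of 2.93 (2.06 to 4.25).

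The transcript tables show which RNA forms made up these levels. The 50 members had 159 annotated transcripts. Among the 14 members at 10 TPM or more, protein-coding transcripts held a median of 92.7% of a gene's TPM in replicate 1 and 94.7% in replicate 2, against 98.6% and 98.5% over all detected protein-coding genes. Mmp14 and Mmp2 each had a single annotated transcript, Timp2 was protein-coding throughout, and Adamts1 reached 97.6% and 95.6%. Of the 33 detected members, 3 were under 50% in both pools (Adamts10, Adamts9 and Adamtsl2), beside 7.27% of all detected protein-coding genes.

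Adamts10 was the extreme case. Its only protein-coding transcript held 21.1% of its TPM in replicate 1 and 16.2% in replicate 2. The largest form is annotated for nonsense-mediated decay and held 27.9% and 24.9%, and a short retained-intron form held 18.8% and 23.9%. In absolute terms the coding form had 8.06 TPM in replicate 1 and 8.01 TPM in replicate 2, while the other forms had 30.2 and 41.4 TPM. The higher Adamts10 level of replicate 2 therefore lay in transcripts not annotated as protein-coding. Taken alone, the coding form still lay above Adamts6 in both pools. It lay below the coding forms of Adamts16, which had 10.9 TPM in replicate 1 and 11.6 TPM in replicate 2. Those of Adamts7 had 7.78 and 9.00 TPM, so Adamts10 was not the highest of its group by coding transcripts. Adamts9 was similar in kind, with 30.4% and 26.3% in coding transcripts, or 3.20 and 2.96 TPM. By coding transcripts it lay below Adamts4 (8.80 and 9.40 TPM), Adamts5 (5.49 and 5.54 TPM) and Adamts15 (5.34 and 6.29 TPM).

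Mmp23 held 52.4% and 52.6% of its TPM in its coding transcript, and the rest in retained-intron forms. Its coding level was 22.2 TPM in replicate 1 and 29.2 TPM in replicate 2, so here the difference between the pools was also present in the coding form. Among the other members at 10 TPM or more, Adamtsl1 had 62.8% and 58.2% in coding transcripts, Mmp16 66.4% and 69.5%, and Adamts7 71.4% and 74.6%. Shares were assigned by the authors' quantifier between forms that share exons, and total RNA also contains unspliced RNA, whose part in these shares was not tested.

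**Figure D5:**
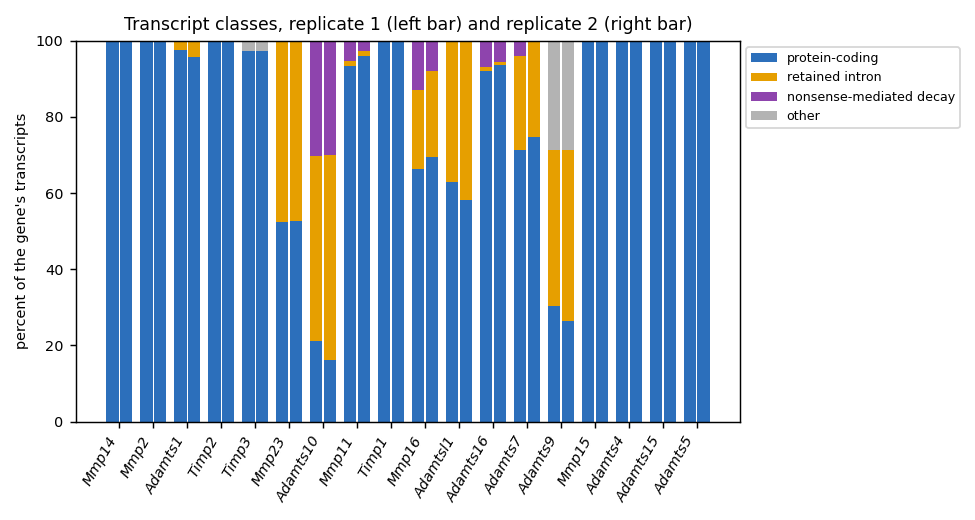
Share of each gene's TPM, in percent, held by protein-coding, retained-intron, nonsense-mediated decay and other transcripts for the 18 members that reached 5 TPM in each library, ordered by level, with replicate 1 as the left bar and replicate 2 as the right bar. Adamts10 (21.1% and 16.2%) and Adamts9 (30.4% and 26.3%) have the smallest coding shares, and the bars of the pools are alike for each gene.

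Some members share their place with another gene. In the annotation 24 members overlapped another gene and 13 shared exon bases with one, in each case on the opposite strand. Since the use of strand in counting is not given, these levels are uncertain to that extent. Mmp11 shared 155 exon bases with the higher Chchd10 (96.0 TPM in replicate 1 and 98.9 TPM in replicate 2). Mmp19 shared 789 bases with Tmem198b (13.7 and 16.7 TPM). Adamts9 shared 1381 bases with A730049H05Rik. Of the inhibitors, Timp1, Timp3 and Timp4 lie within or across synapsin genes: Timp3 shared 1733 exon bases with Syn3 (5.86 and 6.5 TPM), Timp4 shared 90 with Syn2 (1.17 and 2.35 TPM), and Timp1 shared 0 with Syn1 (0.36 and 0.57 TPM).

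Partners of the family were expressed around it. Of 7 activators, 7 were detected, with the plasminogen activator Plat highest at 110 TPM in replicate 1 and 103 TPM in replicate 2 and plasminogen (Plg) lowest by mean, at 1.18 and 2.94 TPM. Furin, which cuts the propeptide of Mmp11, Mmp14 and many ADAMTS enzymes, had 10.6 and 11.0 TPM. Of 7 other inhibitors, inducers and uptake receptors, 6 were detected. Bsg, a cell surface inducer of MMPs, was the highest at 748.2 and 749.5 TPM. Reck had 19.7 and 20.3 TPM. Both enzymes that add the O-fucose disaccharide needed for secretion of many ADAMTS proteins were detected, Pofut2 at 96.3 and 107 TPM and B3glct at 13.9 TPM in each pool.

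Of 10 substrates, 6 were detected. The basement membrane protein nidogen (Nid1) had 66.2 TPM in replicate 1 and 75.5 TPM in replicate 2, perlecan (Hspg2) had 29.4 and 27.8 TPM, and the fibrillins Fbn2 and Fbn1 had 28.5 and 32.2 TPM and 10.9 and 13.3 TPM, in that order. The substrates not detected were those of cartilage and brain, Acan, Comp, Ncan and Bcan, of which Bcan was the lowest by mean, at 0.28 and 0.13 TPM.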

How the data were processed

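Values came from a gene table and a transcript table for each of the 2 libraries. Per the labels' protocols, RNA was extracted with mirVana from pooled tissue, 10 ng entered each library, RNA over 200 nt was measured and spike-ins were added; a manual of a low-input SMARTer kit is listed. Per the submitters' text files beside the tables, the build was mm10 and the annotation GENCODE M4. Neither the quantifier nor its use of strand is given in these sources. The deposited expected counts are estimated reads, shared between features by the authors' quantifier. The deposited TPM (scaled over all features of a library) was the main measure. The deposited FPKM was an alternative, and the percent of a gene's TPM held by each transcript is the authors' column.

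Genes were named, classed and placed with GENCODE M21 (also mm10) through identifiers stripped of their version (42462 of 43346 genes, 98.0%). Detection needed 1 TPM in both libraries, and the replicate limit was the 95th percentile per bin of mean TPM (edges 1, 3, 10, 30 and 100). Intervals of count ratios are exact binomial (95%), and a count of 0 allows up to 3 counts; both cover counting error only. With 1 group, no p was computed. Alternatives were other thresholds, FPKM, TPM rescaled over nuclear genes, CPM with edgeR's TMM factors, no bins, other pseudocounts and each library alone. Python 3.11.15, pandas 2.3.3, scipy 1.17.1, R 4.3.3 and edgeR 4.0.16 were used.

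The genes, lists, pairs and rules were chosen with earlier results of these data known. Named with values are members that reached 5 TPM in each library, the highest of each role, all Timp genes, members past the limit, members at 0 counts, genes of described pairs, members under 50% coding, and the highest and lowest of each partner list. The osteoblast, osteoclast and growth plate lists, the sum without Mmp9 and Mmp13, and Adamts8, Mmp13, Vcan, Acan, Furin, Reck and the marker, fibrillin and overlap genes named singly were chosen after values were seen. The remaining members are given so that all 50 are accounted for. Protein sequences were not analysed here. The values of 1 partner gene that falls under this rule and of 1 overlapping gene are not reported here. Columns of other samples numbered 0.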

Additional observations from a re-analysis of the deposited data

How the results depend on the processing

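The number of detected members was 33 at 1 TPM, 18 at 5 TPM and 36 at 0.5 TPM, and lay between 34 and 35 with 1 library left out. At 1 FPKM it was 26, after rescaling 34, and with at least 10 counts 40. The number past the replicate limit was 4 or 5 under every setting, but the genes were not the same: Mmp9 passed under each, Timp1 and Adamtsl1 with FPKM, Mmp11 after rescaling, Adamts8 with CPM and with a pseudocount and no filter, Mmp13 with the last of these, and Adamtsl5, Adamts20 and Adamts14 with 1 limit for all levels. Between 26 and 28 pairs were called under each setting, and no difference turned its sign. Adamts5 / Adamts4 was called with a pseudocount of 0.1 (-0.71), with FPKM (-0.59), with 1 limit for all levels and without replicate 1 (-0.67). Adamts17 / Adamts19 was not called with FPKM (0.77). The ratio of enzyme to Timp RNA was 3.63 over both libraries, 3.58 to 3.68 with 1 left out, and 3.37 without Mmp9 and Mmp13, since their share of the sum is removed. Of the 20 highest members, 18 to 20 stayed so under every setting. The median coding share was 93.8%, with 92.7% to 94.7% for each library alone. No paired analysis was possible because the study has 1 group. Members under about 10 counts, such as Timp4 and Mmp10, are limited by depth.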
